A study of Mus musculus with 6 samples.

Results

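The genes described here encode the channel complex behind the A-type potassium current, namely the Kv4 pore subunits *Kcnd1*, *Kcnd2* and *Kcnd3*, the Kv channel-interacting proteins (KChIPs) *Kcnip1*, *Kcnip2*, *Kcnip3* and *Kcnip4*, and the dipeptidyl peptidase-like proteins (DPPs) *Dpp6* and *Dpp10*. They were chosen by name, as the members of these gene families, and make up 9 of the 49568 gene names with a value in each sample. The samples were neurons of the preBötzinger complex (preBötC), the brainstem site from which inspiratory rhythm originates, taken at postnatal day 2. All animals carried a tamoxifen-inducible Cre driver at the *Dbx1* locus (Dbx1CreERT2) together with a Cre-dependent tdTomato reporter (Rosa26tdTomato), and tamoxifen was given to their mothers in gestation. Fluorescent neurons, which descend from progenitors that expressed *Dbx1* at that time, formed 3 Dbx1 samples, and neuronal somata without fluorescence formed 3 non-Dbx1 samples. Each sample pooled 15 neurons, drawn singly into pipettes, and came from a different animal.

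The A-type current opens below spike threshold and inactivates quickly, so it delays firing and limits how far excitatory inputs depolarize the cell. Kv4 subunits form its pore. KChIPs are EF-hand calcium-binding proteins that cap the cytosolic end of Kv4, bring it to the membrane and slow its inactivation, and DPP6 and DPP10 are single-span membrane proteins that resemble peptidases without being active ones and speed up Kv4 gating. An A-type current has been recorded in preBötC neurons, but recordings alone do not tell which subunits carry it.

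Reads on genes ranged from 6464675 to 9432958 per sample, as recovered from the steps between deposited values. Transcripts of 6 neuronal markers summed to 994 to 1708 RPKM (reads per kilobase of exon, scaled to the reads on genes of the sample) in the Dbx1 samples and 993 to 1380 RPKM in the non-Dbx1 samples. Of other cell types, 4 of 4 erythroid markers were lower in Dbx1 samples at unadjusted p under 0.05, where 2.48% of all tested genes were. Their sums were 89.6 to 505 RPKM against 732 to 13946 RPKM. The myelin gene *Mbp* was also lower at that p (FDR = 0.912 by limma). It had 1.35, 1.87 and 3.45 RPKM in Dbx1 samples and 155, 4.52 and 9.10 RPKM in non-Dbx1 samples. No tested gene of the astrocyte, microglial, endothelial or motor neuron list was past that p. Astrocyte sums were 21.4 to 26.6 RPKM against 24.4 to 39.5 RPKM, and endothelial sums 0.0711 to 0.595 against 0.0244 to 65.9. Microglial sums were 0.202 to 2.97 against 0.0151 to 1.52, and motor neuron sums 0.0511 to 1.33 against 0.393 to 54.4. Of the 4 microglial genes 2 were tested, as were 2 of the 4 motor neuron genes. Among the microglial genes *Itgam* was at 0 in all 6 samples, while *Aif1*, *Cx3cr1* and *Csf1r* reached 1.53, 1.97 and 0.739 RPKM. Non-Dbx1 sample 1 stood apart, with the highest erythroid sum, the highest *Mbp* and the lowest mean correlation with the other 5 samples (0.827, against 0.847 to 0.865).

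All 9 genes had non-zero RPKM in all 6 samples, from 41 to 3437 reads per gene and sample, so each value lay well above the RPKM of 3 reads (0.0155 to 0.0914 for these genes), a floor that covers counting error only. L2FC is mean log2(RPKM + 1) of the Dbx1 samples minus that of the non-Dbx1 samples, and it understates changes of genes with low RPKM. It was tested with limma over 17614 genes, with Benjamini-Hochberg FDR over all of them. An exact permutation test of 3 samples against 3 cannot go below p = 0.10. In pooled neurons, fewer cells that express a gene and less RNA per cell cannot be told apart.

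None of the 9 genes was differentially expressed at FDR < 0.1, the lowest FDR being 0.912. In the same limma fit 0.00% of all tested genes were called higher and 0.00568% lower, which was 1 gene. At unadjusted p under 0.05, 3 of the 9 (*Kcnd2*, *Kcnip2* and *Kcnip4*) were higher in Dbx1 samples, where 2.73% of all tested genes were, and 0 of the 9 were lower, where 2.48% were (5.20% in either direction). The 9 genes were chosen with earlier results of these data known, so setting their count beside these shares is no test of an excess. A voom fit on recovered reads also put 0 of the 9 past the FDR threshold, and put *Kcnd2* (higher, as 2.88% of its 13991 genes) and *Kcnd3* (lower, as 2.38%) past unadjusted p of 0.05. The groups did not overlap for *Kcnd2* (higher in Dbx1 samples, as for 5.35% of all tested genes) and for *Kcnd3* (lower in Dbx1 samples, as for 5.24%, with 10.6% in either direction). Positive L2FC was found in 5 of them and negative in 4, with a median of 0.10 beside 0.0089 over all tested genes.

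The sequences before the start sites of the 3 genes with unadjusted p under 0.05 are shown because these genes had the same direction. Each is the first window that RefSeq (GRCm38.p6) gives for the gene, 250 bases ending at the base before the start, read on the gene's strand from 5′ to 3′, with GGGCGG, the core of the GC box, in capitals on either strand. They lie at chr6:21215096-21215345 (plus strand) for *Kcnd2*, chr19:45816064-45816313 (minus strand) for *Kcnip2* and chr5:49285660-49285909 (minus strand) for *Kcnip4*. The *Kcnip4* window lies inside the span that GENCODE vM21 gives for the gene (chr5:48389502-49524907), so it precedes a start within the gene. The *Kcnd2* and *Kcnip2* windows lie outside the spans of their genes.
Kcnd2: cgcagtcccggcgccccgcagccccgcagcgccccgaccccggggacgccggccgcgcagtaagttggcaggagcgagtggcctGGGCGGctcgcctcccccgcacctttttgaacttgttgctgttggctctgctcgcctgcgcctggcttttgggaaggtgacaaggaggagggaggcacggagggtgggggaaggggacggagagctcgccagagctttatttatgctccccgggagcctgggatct
Kcnip2: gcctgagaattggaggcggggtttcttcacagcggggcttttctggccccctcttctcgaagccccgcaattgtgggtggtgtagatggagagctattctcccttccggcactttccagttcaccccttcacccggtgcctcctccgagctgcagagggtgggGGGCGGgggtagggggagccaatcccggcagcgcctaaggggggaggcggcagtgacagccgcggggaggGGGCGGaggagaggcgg
Kcnip4: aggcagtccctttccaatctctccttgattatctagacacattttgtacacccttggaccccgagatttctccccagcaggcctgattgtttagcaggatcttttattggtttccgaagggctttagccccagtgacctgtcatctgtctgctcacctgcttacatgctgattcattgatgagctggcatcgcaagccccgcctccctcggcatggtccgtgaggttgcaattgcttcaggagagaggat
The *Kcnd2* window held 1 GGGCGG, the *Kcnip2* window 2 and the *Kcnip4* window 0. G or C made up 68.8%, 66.8% and 51.2% of the *Kcnd2*, *Kcnip2* and *Kcnip4* windows, against a median of 52.4% over 32851 mouse windows, and CG pairs numbered 22, 15 and 6 against a median of 6. The *Kcnip4* window was thus near the median in both and the other 2 were above it. Across the 15 windows of the 8 members that RefSeq matched, GGGCGG was in 7, where 32.7% of all windows hold it, CAGCTG (an E box, its own reverse complement) was in 3, where 13.0% do, and TATAAA on either strand was in 1, where 12.4% do. Each motif was counted on its own, overlaps with another motif included, and a match describes letters in a window rather than a bound site.

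*Kcnd2*, encoding Kv4.2, the subunit of most dendritic A-type current in forebrain pyramidal cells, spans chr6:21215503-21729805 of GRCm38. Its RPKM was 25.5, 21.1 and 23.9 in Dbx1 samples 1 to 3 and 6.67, 13.8 and 18.0 in non-Dbx1 samples 1 to 3. All Dbx1 samples lay above all non-Dbx1 samples, and the Dbx1 samples were close to each other while the non-Dbx1 samples spread. The means were 23.5 ± 2.21 and 12.8 ± 5.72 (SD, n = 3 each), a 1.84-fold ratio, with L2FC = 0.92 ± 0.37 (SE, 95% interval 0.07 to 1.78, p = 0.0376, FDR = 0.912; exact permutation test, p = 0.10). With 1 sample left out, L2FC was past unadjusted p of 0.05 only without non-Dbx1 sample 3 (1.20). It was 0.86 to 1.02 when a Dbx1 sample or non-Dbx1 sample 2 was the one left out, and 0.55 (FDR = 0.888) without non-Dbx1 sample 1, which held the lowest value. The part of non-neuronal RNA in that sample in this difference was not tested.

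*Kcnd3*, encoding Kv4.3, often found in interneurons, lies at chr3:105452330-105674002 and gave the opposite direction. Its RPKM was 1.39, 3.37 and 0.750 in Dbx1 samples and 3.55, 11.6 and 4.87 in non-Dbx1 samples. The highest Dbx1 value, in sample 2, was just under the lowest non-Dbx1 value. Mean RPKM was 1.83 ± 1.36 against 6.69 ± 4.34, or 3.65-fold higher in non-Dbx1 samples, with L2FC = -1.40 ± 0.63 (95% interval -2.84 to 0.04, p = 0.0548, FDR = 0.912 by limma; exact permutation test, p = 0.10). Without non-Dbx1 sample 2, the highest, L2FC was -0.97 (FDR = 0.950), while it was -1.77 without Dbx1 sample 2 and -1.71 without non-Dbx1 sample 1, both past unadjusted p of 0.05. The endothelial markers *Cldn5* (63.7 RPKM) and *Tek* (2.16 RPKM) were also highest in non-Dbx1 sample 2. The other endothelial marker, *Pecam1*, was at 0.0343 RPKM there and highest in Dbx1 sample 2 (0.507 RPKM). The part of this in the *Kcnd3* value of non-Dbx1 sample 2 was not tested. Exons of *Kcnd3* overlap the antisense gene *Kcnd3os*, and the counting did not use strand. A read in the shared stretch could thus not be assigned to either gene by strand, and the effect on the *Kcnd3* values was not tested.

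*Kcnd1*, encoding Kv4.1, the Kv4 gene of lowest level in most brain regions, lies at chrX:7822289-7838280. Its RPKM was 9.62, 4.44 and 2.00 in Dbx1 samples and 8.12, 3.0 and 2.84 in non-Dbx1 samples. The first sample of each group was far above its others, and the groups overlapped over nearly their whole range. L2FC was 0.10 ± 0.63 (95% interval -1.34 to 1.55; FDR = 0.991; exact permutation test, p = 0.90), an interval that holds differences of more than 1 in either direction, and its sign turned when 1 of 3 samples was left out (-0.36 without Dbx1 sample 1, -0.09 without non-Dbx1 sample 2 and -0.12 without non-Dbx1 sample 3).

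**Figure D1:**
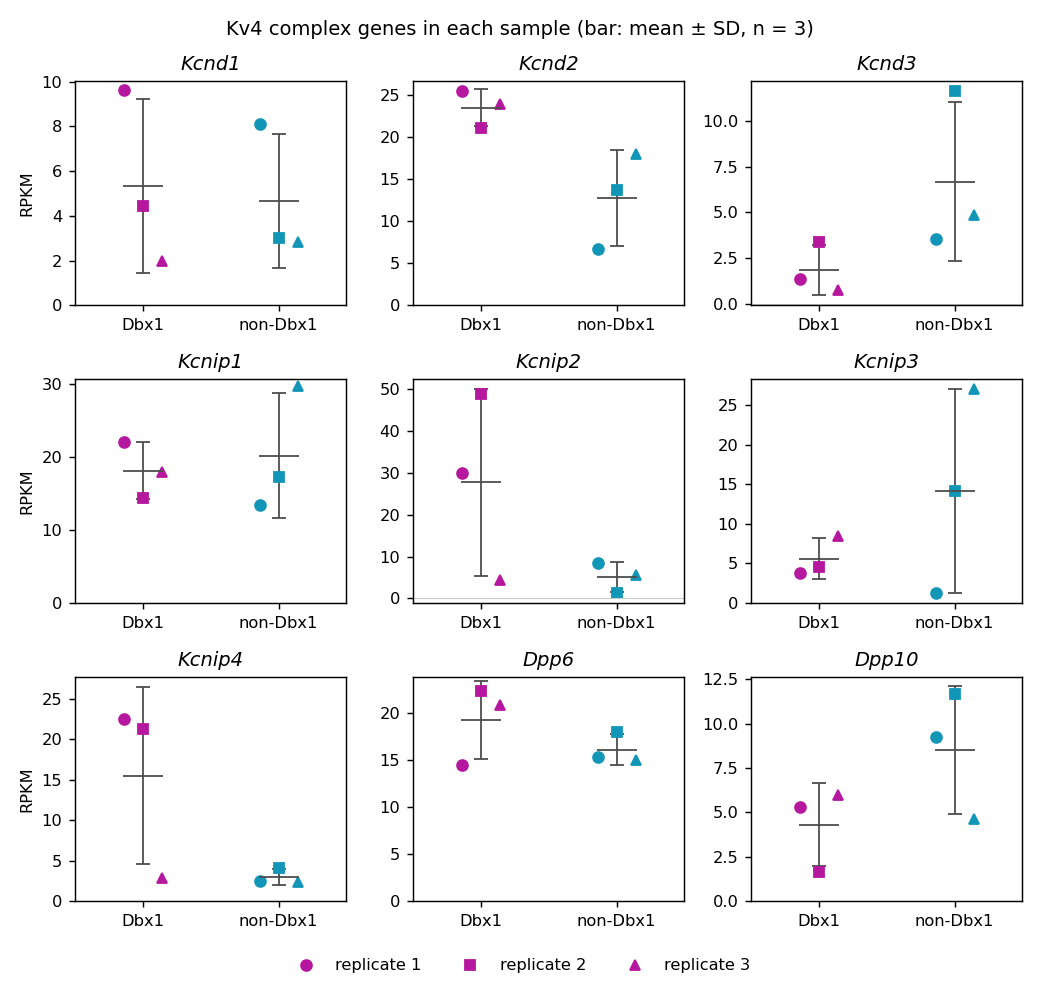
RPKM (linear axis from 0, one scale per gene) of the 9 genes in Dbx1 (magenta) and non-Dbx1 (cyan) samples, with marker shapes for the replicate number, a horizontal bar for the mean and whiskers for the SD (n = 3). The groups separate for *Kcnd2* and *Kcnd3*, while Dbx1 sample 3 (triangle) sits with the non-Dbx1 samples for *Kcnip2* and *Kcnip4*.

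Among the KChIPs, *Kcnip2* had the largest L2FC of the 9 genes and the most uneven samples. It encodes KChIP2, which in heart muscle sets the size of the transient outward current with Kv4, and lies at chr19:45791839-45816061. Its RPKM was 30.0, 48.8 and 4.42 in Dbx1 samples and 8.45, 1.22 and 5.57 in non-Dbx1 samples. Dbx1 samples 1 and 2 were above every non-Dbx1 sample, but Dbx1 sample 3 was below 2 of them. Mean RPKM was 27.7 ± 22.3 against 5.08 ± 3.64, a 5.47-fold ratio, with L2FC = 1.98 ± 0.86 (95% interval 0.02 to 3.93, p = 0.0484, FDR = 0.912 by limma; exact permutation test, p = 0.30). Without Dbx1 sample 3 L2FC was 2.93 (FDR = 0.547). It was 1.67 without Dbx1 sample 1, 1.33 without Dbx1 sample 2, 1.37 without non-Dbx1 sample 2 and 2.15 without non-Dbx1 sample 3, and in these 4 fits it was not past unadjusted p of 0.05.

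*Kcnip4*, encoding KChIP4, of which some isoforms hinder rather than help the surface delivery of Kv4, lies at chr5:48389502-49524907. Its RPKM was 22.4, 21.2 and 2.89 in Dbx1 samples and 2.55, 4.16 and 2.39 in non-Dbx1 samples. The same pair of Dbx1 samples was high, and Dbx1 sample 3 lay within the narrow non-Dbx1 range. Mean RPKM was 15.5 ± 10.9 against 3.03 ± 0.975, a 5.11-fold ratio, with L2FC = 1.67 ± 0.71 (95% interval 0.06 to 3.29, p = 0.0440, FDR = 0.912 by limma; exact permutation test, p = 0.20). Without Dbx1 sample 3 L2FC was 2.53 (FDR = 0.547). When any of the other 5 samples was left out it was 1.23 to 1.87 and not past unadjusted p of 0.05, with the lowest value without Dbx1 sample 1. Isoforms were not measured, and exons of *Kcnip4* overlap those of 5730480H06Rik and *Gm20700*.

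Dbx1 sample 3 also differed from Dbx1 samples 1 and 2 in its markers. It had the highest erythroid sum (505 RPKM) and the lowest neuronal sum (994 RPKM) of the 3. Of the 6 neuronal markers *Tubb3*, *Snap25*, *Syn1* and *Eno2* were lowest in it (*Snap25* 147 RPKM, against 301 and 244) and *Rbfox3* and *Map2* were highest (*Rbfox3* 28.6 RPKM, against 11.5 and 11.1). Of the oligodendrocyte lineage markers *Olig1* (63.9 RPKM, against 26.3 and 10.6), *Olig2* and *Mbp* were highest in it, and *Mog* (0.0796 RPKM, against 0.905 and 0.882) and *Pdgfra* were lowest. Whether these bear on its *Kcnip2* and *Kcnip4* values was not tested.

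*Kcnip1* and *Kcnip3* did not share the direction of *Kcnip2* and *Kcnip4*. *Kcnip1*, encoding KChIP1, common in inhibitory interneurons of forebrain and at chr11:33629339-33993152, gave an RPKM of 22.1, 14.4 and 18.0 in Dbx1 samples and 13.5, 17.3 and 29.8 in non-Dbx1 samples. The groups overlapped, with means of 18.2 ± 3.87 and 20.2 ± 8.53 and L2FC = -0.09 ± 0.35 (95% interval -0.90 to 0.71; FDR = 0.988; exact permutation test, p = 0.90). *Kcnip3*, whose product is also known as DREAM or calsenilin and acts as a calcium-dependent transcriptional repressor as well as a channel subunit, lies at chr2:127456498-127522094 and gave 3.76, 4.55 and 8.52 RPKM in Dbx1 samples and 1.25, 14.1 and 27.0 RPKM in non-Dbx1 samples. Both the lowest and the highest value came from non-Dbx1 samples, and L2FC was -0.64 ± 0.86 (95% interval -2.60 to 1.32; FDR = 0.960; exact permutation test, p = 0.60). It was -1.70 without non-Dbx1 sample 1 (past unadjusted p of 0.05, FDR = 0.797) and 0.12 without non-Dbx1 sample 3 (FDR = 0.989). Non-Dbx1 sample 3, highest in both genes, also had the highest sum of the 4 motor neuron markers (54.4 RPKM, with *Slc18a3* at 37.0 and *Isl1* at 13.3 RPKM, while *Isl1* was at 0 in the other 5), and the part of this in the 2 values was not tested.

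*Dpp6* was the steadiest of the 9 genes. It lies at chr5:26817203-27727505, and its RPKM was 14.5, 22.3 and 20.9 in Dbx1 samples and 15.3, 18.0 and 15.0 in non-Dbx1 samples. The groups overlapped and the highest value was 1.53 times the lowest, with L2FC = 0.23 ± 0.29 (95% interval -0.43 to 0.88; FDR = 0.960; exact permutation test, p = 0.40). *Dpp10*, at chr1:123321471-124045559, gave 5.33, 1.64 and 5.99 RPKM in Dbx1 samples and 9.23, 11.7 and 4.61 RPKM in non-Dbx1 samples. Non-Dbx1 samples 1 and 2 lay above every Dbx1 sample and non-Dbx1 sample 3 within their range, with L2FC = -0.88 ± 0.55 (95% interval -2.14 to 0.38; FDR = 0.936; exact permutation test, p = 0.30), and -0.44 without Dbx1 sample 2.

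**Figure D2:**
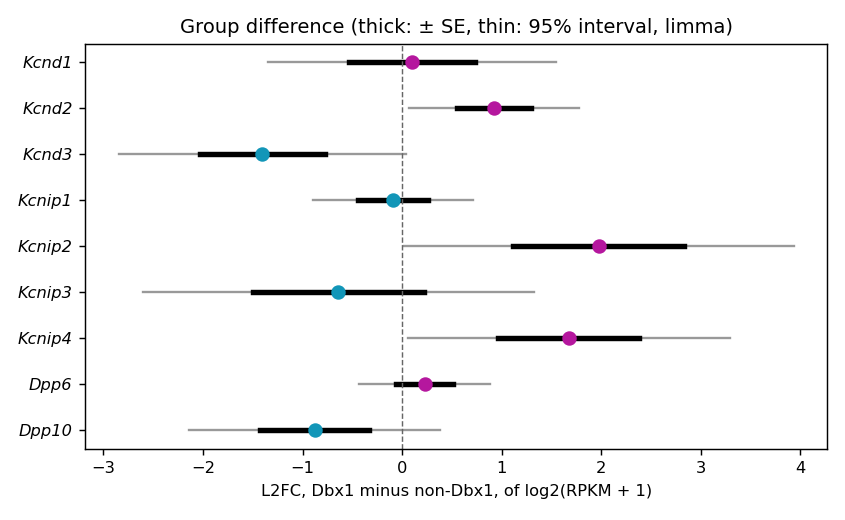
L2FC (Dbx1 minus non-Dbx1, log2(RPKM + 1) scale) of the 9 genes, with thick lines for the SE and thin lines for the 95% interval of limma. The intervals of *Kcnd2*, *Kcnip2* and *Kcnip4* lie above 0 by less than 0.1, that of *Kcnd3* reaches 0.04, and the others cross 0 widely.

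Summed Kv4 RPKM was 30.7 ± 5.15 in Dbx1 samples and 24.1 ± 5.21 in non-Dbx1 samples. *Kcnd2* made up 69.8%, 73.0% and 89.7% of it in Dbx1 samples and 36.3%, 48.5% and 70.0% in non-Dbx1 samples, so the share in non-Dbx1 sample 3 lay just above the lowest Dbx1 share. *Kcnd2* was the highest Kv4 gene in every sample but non-Dbx1 sample 1, where *Kcnd1* was. *Kcnd3* made up 41.0% in non-Dbx1 sample 2 and 2.81% in Dbx1 sample 3, its highest and lowest shares. Sums and shares of the 9 genes are descriptions, with no test.

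Summed KChIP RPKM was 67.0 ± 29.3 in Dbx1 samples and 42.4 ± 20.1 in non-Dbx1 samples, with a composition that varied from sample to sample. *Kcnip2* and *Kcnip4* together made up 66.9%, 78.7% and 21.6% in Dbx1 samples and 42.7%, 14.6% and 12.3% in non-Dbx1 samples. *Kcnip2* was the highest KChIP in Dbx1 samples 1 and 2, and *Kcnip1* in the other 4. *Kcnip3* made up 4.81% to 41.7%, and its largest shares were in non-Dbx1 samples 2 and 3. The KChIP sum exceeded the Kv4 sum in all 6 samples, with a ratio of 1.95 ± 0.751 (range 1.27 to 3.08), while the DPP sums were 23.6 ± 3.53 and 24.6 ± 5.04 and *Dpp6* made up 60.6% to 93.1% of them.

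**Figure D3:**
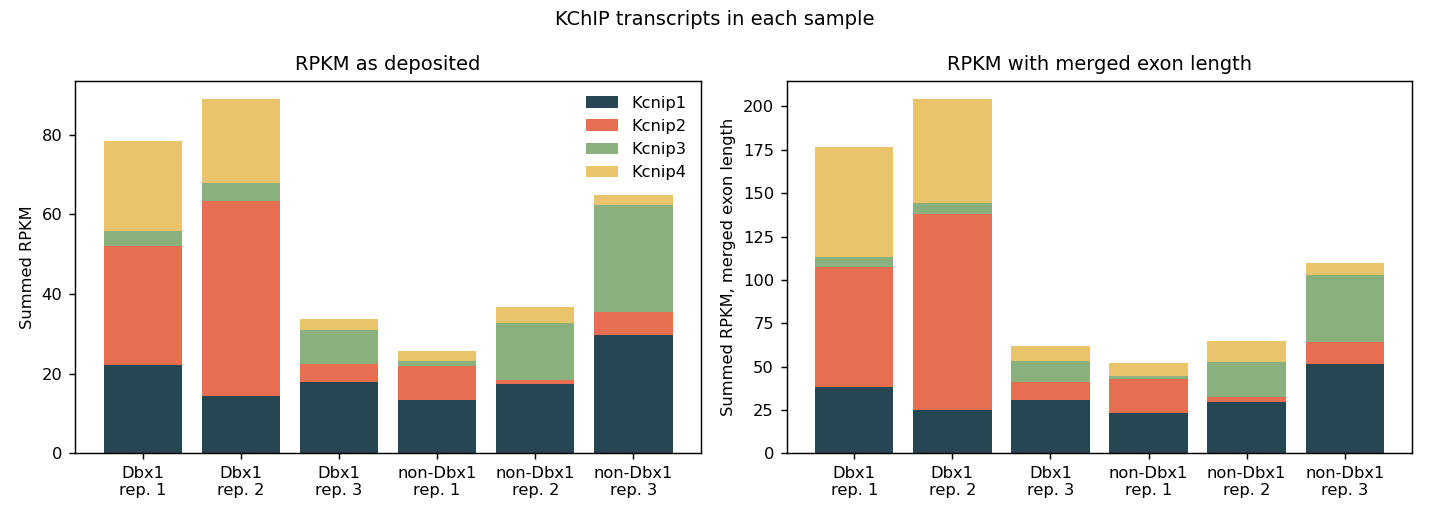
Stacked RPKM of the 4 KChIP genes in each sample, as deposited (left) and rebuilt with merged exon length (right; note the different axis). *Kcnip2* and *Kcnip4* make up 66.9% and 78.7% of the bars of Dbx1 samples 1 and 2 as deposited and 12.3% to 42.7% of the others, and with merged exon length 75.3% and 84.6% against 17.9% to 51.6%.

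Levels of different genes can be compared on the RPKM scale only as far as the exon length that divides them. In order of mean RPKM over 6 samples (± SD), the genes were *Kcnip1* 19.2 ± 6.03, *Kcnd2* 18.2 ± 7.03, *Dpp6* 17.7 ± 3.30, *Kcnip2* 16.4 ± 18.9, *Kcnip3* 9.86 ± 9.52, *Kcnip4* 9.27 ± 9.74, *Dpp10* 6.41 ± 3.55, *Kcnd1* 5.01 ± 3.13 and *Kcnd3* 4.26 ± 3.92. No gene differed from the next in this order beyond the spread of their log2 difference over samples. *Kcnip1* was above *Kcnd2* in 3 of 6 samples, *Kcnd2* above *Dpp6* in 3 and *Dpp6* above *Kcnip2* in 4. The 4 highest genes were at the 83.1 to 85.2 percentile of mean RPKM of all tested genes, and *Kcnd1* and *Kcnd3* were at 60.0 and 56.3.

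The exon length that the authors divided by was inferred from the deposited values. It was taken as the merged exon length of GENCODE vM21 where that gave whole reads. Otherwise it was the smallest length that did, though a multiple of it would fit too. The inferred length was longer than the merged exons for 8 of the 9 genes. The ratio was 1.0 for *Kcnd2*, 2.32 for *Kcnip2* (8058 against 3476 bases) and 2.82 for *Kcnip4* (10236 against 3627 bases), and its median was 1.43 over the 9 genes and 1.23 over 17066 tested genes. With merged lengths the order became *Kcnip2* 38.0, *Kcnip1* 33.2, *Dpp6* 29.3, *Kcnip4* 26.2, *Kcnd2* 18.2, *Kcnip3* 14.1, *Dpp10* 7.53, *Kcnd3* 5.96 and *Kcnd1* 5.72 RPKM. *Kcnd2* thus moved from place 2 to place 5, and the ratio of KChIP to Kv4 sums from 1.95 to 3.63. In non-Dbx1 sample 2 the highest Kv4 gene changed from *Kcnd2* to *Kcnd3*. Length divides both groups alike, and the 3 genes at unadjusted p under 0.05 were the same 3 with merged length.

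**Figure D4:**
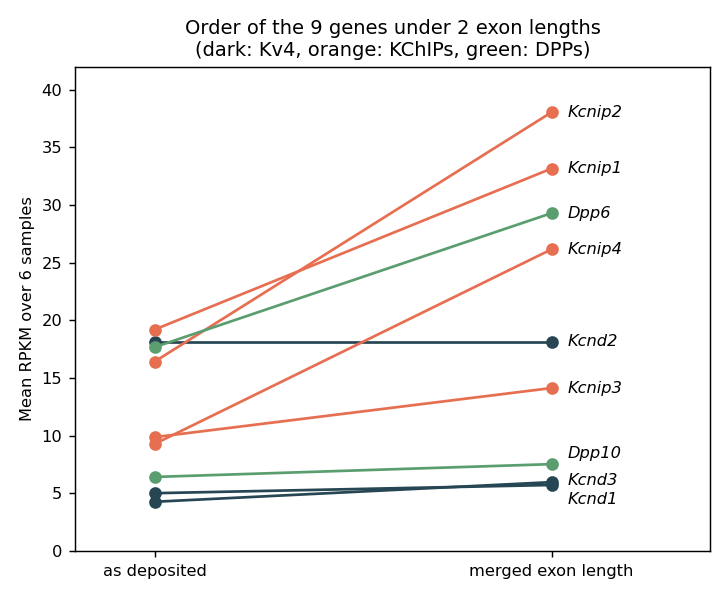
Mean RPKM over 6 samples of each gene with the authors' exon length (left) and with merged exon length (right), Kv4 genes dark, KChIPs orange and DPPs green. *Kcnd2* stays at 18.2 while *Kcnip2* and *Kcnip4* climb above it.

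The 9 genes also differed in how much samples of a group varied. The within-group SD of log2(RPKM + 1) was 0.243 for *Dpp6*, smaller than in all but 6.60% of 9796 genes with mean RPKM of 2 to 50, whose median was 0.603. It was 0.445 for *Kcnip1* and 0.487 for *Kcnd2*, and only 0.132 for *Kcnd2* within the Dbx1 samples. *Kcnip2* (1.42) and *Kcnip3* (1.39) varied more than 93.0% and 92.4% of these genes, and *Kcnip4* (1.07) more than 82.6%, with 1.47 within Dbx1 and 0.331 within non-Dbx1 samples. *Kcnip2*, *Kcnip3* and *Kcnip4* were thus the most variable of the 9 genes within groups. In the genome, 6 of the 9 genes span over 200 kb, which 6.84% of 13007 tested protein-coding genes do, and their median span was 364 kb against 26.1 kb.

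Of the other voltage-gated potassium pore genes, 30 of 37 were tested, 0 passed FDR < 0.1 by limma, and the median L2FC was 0.21. At unadjusted p under 0.05, 1 was higher and 1 lower in Dbx1 samples, as were 2.73% and 2.48% of all tested genes. The first was *Kcna3*, encoding Kv1.3, with 8.07, 9.15 and 18.5 RPKM in Dbx1 samples and 0, 4.61 and 0 in non-Dbx1 samples (L2FC = 2.77, FDR = 0.798). The second was *Kcna5*, encoding Kv1.5, listed at 0 in all Dbx1 samples and at 0.162, 2.94 and 2.07 RPKM in non-Dbx1 samples (FDR = 0.912). Among all 40 pore genes, Kv4 included, *Kcnd2* had the highest mean RPKM in Dbx1 samples and the second highest in non-Dbx1 samples. Over 6 samples *Kcnc4*, encoding Kv3.4, which also carries a fast-inactivating current, was at 18.4 ± 13.7 RPKM beside 18.2 for *Kcnd2* and was the lower of the pair in 3 of 6. *Kcna4*, encoding Kv1.4, another inactivating channel, was at 8.04 and *Kcnc1* at 7.17 RPKM. *Kcnd3* ranked 27 in Dbx1 and 4 in non-Dbx1 samples.

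Of 20 other genes that carry A-type current or partner Kv4, 16 were tested, with 0 past FDR < 0.1 and a median L2FC of 0.28. At unadjusted p under 0.05, 0 were higher and 1 was lower in Dbx1 samples, beside 2.73% and 2.48% of all tested genes. That one was *Ncs1*, a calcium sensor that binds Kv4 as KChIPs do (L2FC = -0.68, FDR = 0.912). It had 43.4, 26.9 and 37.7 RPKM in Dbx1 samples and 44.4, 68.7 and 61.7 RPKM in non-Dbx1 samples. Its groups did not overlap, as for 5.24% of all tested genes in that direction. The highest was *Prkaca* (103 RPKM), which encodes a catalytic subunit of protein kinase A, a kinase that phosphorylates Kv4.2. Of 8 neuronal calcium sensors related to KChIPs, *Ncs1* included, 6 were tested and 0 passed FDR < 0.1, with a median L2FC of -0.13. At unadjusted p under 0.05, 1 was higher and 1 was lower, beside the same shares of all tested genes. The higher one was *Hpcal4*, a visinin-like sensor, with 27.8, 66.2 and 11.3 RPKM against 13.8, 8.61 and 5.57 RPKM (L2FC = 1.56, FDR = 0.912). Its order of Dbx1 samples was that of *Kcnip2*. *Vsnl1* (163 RPKM) and *Hpcal1* (114 RPKM) had the highest levels of these sensors, above every KChIP. Of 5 active relatives of DPPs, 4 were tested and 0 passed unadjusted p of 0.05, with a median L2FC of -0.01, and the highest were *Dpp9* (27.1 RPKM), *Prep* (11.5 RPKM) and *Dpp8* (1.89 RPKM).

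The genes whose pattern over the 6 samples was most like that of *Kcnd2*, *Kcnip2* and *Kcnip4* were sought among 8027 genes. These had RPKM of at least 1 in all 6 samples, so *Kcnd3* (0.750 in Dbx1 sample 3) was not among them. Likeness was the root mean square difference of log2(RPKM + 1) after each gene was centred on its own mean. Nearest to *Kcnd2* were *Khdrbs2*, which encodes an RNA-binding splicing regulator (0.0927), 0610010F05Rik (0.129) and *Tnks2*, a tankyrase gene (0.136). *Khdrbs2* gave 9.08, 7.12 and 7.55 RPKM in Dbx1 samples and 1.56, 3.60 and 5.61 RPKM in non-Dbx1 samples. Nearest to *Kcnip2* were *Fam19a1*, encoding a secreted chemokine-like protein (0.345), and the neuronal pentraxin genes *Nptx1* (0.533) and *Nptx2* (0.574), with *Kcnip4* at place 20 (0.859). *Fam19a1* gave 26.1, 54.6 and 6.62 RPKM in Dbx1 samples and 5.35, 1.24 and 7.06 RPKM in non-Dbx1 samples. Nearest to *Kcnip4* were *Lypd1*, which encodes a modulator of nicotinic receptors (0.481), *Kat8*, a histone acetyltransferase gene (0.488), and *Slc35a1*, a sialic acid transporter gene (0.513), with *Kcnip2* at place 161. *Kcnd2* was at place 852 from *Kcnip4* and 1843 from *Kcnip2*, where *Kcnd1* was nearer (468). Counted from *Kcnd2*, *Kcnip4* was at place 6971 and *Kcnip2* at 7949 of the 8027 genes, far behind *Kcnip1* (1438) and *Dpp6* (1833). These are distances over 6 points that share 2 groups, given as descriptions.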

How the data were processed

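Reads from 6 pools of neurons were processed by the authors, who made amplified full-length cDNA, aligned single-end reads to mm10 (GRCm38) with TopHat2, sorted them with SAMtools, counted them on Ensembl gene names with HTSeq without strand, and divided by exon length. The deposited RPKM values are relative to the reads on genes of the same sample, with no scaling between samples. The authors tested counts with DESeq2, but the analysed files hold RPKM, so log2(RPKM + 1) was fitted with limma 3.58.1 (eBayes with a trend) in R 4.3.3 over the 17614 genes that 3 or more samples list above 0, with two-sided p-values and an FDR threshold of 0.1. The 9 genes and all lists were chosen with earlier results of these data known. Named list genes were those with unadjusted p under 0.05 and the 3 of highest mean RPKM per list, plus the 3 nearest in pattern to *Kcnd2*, *Kcnip2* and *Kcnip4*. Reads of a gene were taken as whole numbers (within 0.001 read or a relative 1e-06) that give the deposited values. The merged exon length was used where it gave such numbers, and otherwise the smallest length that did. The sums of these reads were 99.5% to 99.6% of the totals. Positions and merged exon lengths came from GENCODE vM21. Alternatives were a pseudocount of 0.1, other filters and scalings, no trend, a replicate block, each sample left out, voom and, added after seeing the data, merged exon length. Some genes of the lists are not reported here by name. Other values used Python 3.11.15, numpy 2.4.6, pandas 2.3.3 and matplotlib 3.10.9. P-values measure the spread between samples of 1 animal each, and reads from amplified cDNA are not independent molecules.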

Additional observations from a re-analysis of the deposited data

How the results depend on the processing

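Across 15 fits, none of the 9 genes reached FDR < 0.1, the lowest FDR being 0.547. Over the same fits L2FC ranged from 0.55 to 1.20 for *Kcnd2* (unadjusted p under 0.05 in 8), -1.97 to -0.97 for *Kcnd3* (in 6), 1.33 to 2.93 for *Kcnip2* (in 6) and 1.23 to 2.53 for *Kcnip4* (in 6), each with 1 sign. The number of the 9 genes at unadjusted p under 0.05 was 3 as reported, 1 without the filter (*Kcnd2*), 1 with quantile normalization (*Kcnd2*), 1 without the trend (*Kcnd3*), 4 with a pseudocount of 0.1 and 4 at RPKM of at least 1 (both adding *Kcnd3* as lower), and 0 to 3 with 1 sample left out. Replicate numbers did not pair the samples (correlations of same-numbered deviations of -0.11, 0.02 and -0.05). With the replicate number as a block, the number was 1 (*Kcnip4*), and 0 of all tested genes passed FDR < 0.1. That count over all genes was 1 as reported, 0 with a pseudocount of 0.1, 0 without the filter, 3 without the trend, 0 with voom and 0 to 1 with 1 sample left out. Signs turned only on leaving out a sample, for *Kcnd1* (-0.36 without Dbx1 sample 1, -0.09 and -0.12 without non-Dbx1 samples 2 and 3), *Kcnip1* (0.06 without Dbx1 sample 2, 0.21 without non-Dbx1 sample 3, lowest -0.33) and *Kcnip3* (0.12 without non-Dbx1 sample 3, lowest -1.70). Merged exon length moved mean RPKM to 33.2 for *Kcnip1*, 38.0 for *Kcnip2*, 26.2 for *Kcnip4* and 29.3 for *Dpp6*, and the KChIP to Kv4 ratio to 3.63, since it divides the same reads by fewer bases. Otherwise the cause was not tested. With 3 samples a group the 95% intervals of *Kcnip2* and *Kcnip3* are almost 4 wide on the log2 scale.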
